A study of Mus musculus with 8 samples.

Results

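A set of 10 endoplasmic reticulum (ER) chaperone and folding genes was followed in photoreceptor cells isolated at postnatal day 8: Hspa5, Hsp90b1, Calr, Canx, Pdia3, Pdia4, Pdia6, Dnajb9, Hyou1 and Xbp1. They were chosen by name, with earlier results of these data known. Every array probe whose RefSeq accession belongs to them was used. That gave 19 probes for the 10 genes, out of 56605 probes that are no controls and 22911 genes that these name. Cells came from C57BL/6 mice that carried either 1 or 0 intact copies of Lpcat1, labelled Lpcat1 HZ (heterozygous) and Lpcat1 KO (knockout), with 4 arrays each, and no wildtype cells were among them. Lpcat1 encodes an acyltransferase that remodels phosphatidylcholine. Per the study's methods, the KO line had a C57BL6/N background and was crossed with C57BL6/J, mice homozygous for the rd8 mutation of Crb1 were left out, and cells were collected with magnetic beads against the surface protein CD73. The labels do not say whether an array holds 1 mouse or pooled mice, so p-values measure only the spread between these samples.

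The ER folds proteins that enter the secretory pathway, and rods make large amounts of the membrane protein rhodopsin there. Hsp70 and Hsp90 type chaperones bind unfolded chains, the lectins calnexin and calreticulin hold glycoproteins, and protein disulfide isomerases form and shuffle disulfide bonds. When unfolded protein builds up, sensors in the ER membrane start the unfolded protein response (UPR), in which the transcription factors ATF6 and spliced XBP1 raise transcription of chaperone genes. They act through the ER stress element, a CCAAT box and the letters CCACG kept apart by a spacer of fixed length.

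That element was looked for in RefSeq promoter windows (GRCm38.p6, 250 bases before to 50 after each gene's start), which held 9 of the 10 genes and not Hyou1. The letters CCAAT-N9-CCACG, on either strand, were in 5 of the 9 windows and in 39 of all 32851 windows (0.119%). The stretches before the start are shown because the letters are rare among promoters and shared by these genes. Capitals mark the CCAAT and CCACG ends, which read ATTGG and CGTGG where the element lies on the opposite strand.
Hspa5, 250 to 1 bases before the start (chr2:34771840-34772089, plus strand): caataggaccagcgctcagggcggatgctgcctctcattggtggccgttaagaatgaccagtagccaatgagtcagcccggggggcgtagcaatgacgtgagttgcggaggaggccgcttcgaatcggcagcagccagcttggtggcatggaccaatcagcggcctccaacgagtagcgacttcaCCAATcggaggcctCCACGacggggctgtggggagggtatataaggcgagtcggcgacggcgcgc
Hsp90b1, 250 to 1 bases before the start (chr10:86705445-86705694, minus strand): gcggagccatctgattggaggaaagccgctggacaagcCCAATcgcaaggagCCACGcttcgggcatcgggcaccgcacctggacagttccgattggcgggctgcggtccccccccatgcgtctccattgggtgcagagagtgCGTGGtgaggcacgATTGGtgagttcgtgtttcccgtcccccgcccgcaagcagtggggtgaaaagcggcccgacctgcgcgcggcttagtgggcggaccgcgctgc
Calr, 192 to 114 bases before the start (chr8:84847045-84847123, minus strand): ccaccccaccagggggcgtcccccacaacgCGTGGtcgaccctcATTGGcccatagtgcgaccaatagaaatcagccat
Canx, 175 to 97 bases before the start (chr11:50325770-50325848, minus strand): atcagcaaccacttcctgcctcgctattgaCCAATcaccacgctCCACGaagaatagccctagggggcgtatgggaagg
Pdia6, 128 to 50 bases before the start (chr12:17266461-17266539, plus strand): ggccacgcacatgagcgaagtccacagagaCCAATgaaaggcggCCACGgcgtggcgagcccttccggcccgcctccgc

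Hsp90b1 held 2 copies, 1 on each strand, and the other 4 genes held 1 copy. The first bases lay 65 bases before the start in Hspa5, 98 in Pdia6, 145 in Canx, 162 in Calr and 212 in Hsp90b1, whose other copy ended 89 bases before the start. No window of Pdia3, Pdia4, Dnajb9 or Xbp1 held these letters. Each end alone is common, since CCAAT was in 37.4% and CCACG in 32.8% of all windows, and both overlap the element. For the UPR element only the letters TGACGTGG were searched, and they were in 0 of the 9 windows and in 0.676% of all windows. The Hspa5 stretch above holds TGACGTGA, which differs in the last letter and was not searched for. A match describes letters and not a site in use.

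Values are log2 signals relative to the 75th percentile of each array, and differences are KO minus HZ on the same log2 scale. Every one of the 19 probes was well above background on all 8 arrays, none was saturated, and each was printed in 1 spot per array. As probes bind with different strength, levels of different probes are not compared. Thresholds came in 2 pairs, taken from the study's methods, a fold over 1.5 with an adjusted p under 0.5 and a fold over 1.2 with an adjusted p under 0.05.

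No ER chaperone gene passed either pair of thresholds in the main unpaired comparison, and other settings called from 0 to 2 of the 10 genes at the looser pair. With the replicate number, which pairs the arrays, as a block, 1 of the 10 genes passed the looser pair (Hspa5, adjusted p 0.40), beside 3.4% of all probes. In that fit 2 of the 10 had an unadjusted p under 0.05 (Hspa5 and Xbp1). The share of all tested probes at that level under the block was not counted, so these 2 have no background to be read against. In limma's unpaired fit over 34303 tested probes, 0 of the 19 probes were called, beside 1.04% of all tested probes at the looser and 0% at the stricter pair, and the smallest adjusted p among the 19 was 0.58 (Hspa5). At an unadjusted p under 0.05, 2 of 19 probes were lower on KO arrays, beside 3.48% of all tested probes, and 0 were higher, beside 4.69% (8.17% in either direction). Read by the brightest probe of each gene, 1 of 10 genes was lower at that level and 0 were higher, beside 3.5% and 5.81% of all tested genes. By size alone 1 of the 19 probes, the brightest of Hspa5, was lower by over 1.5-fold, beside 3.28% of all tested probes. The methods' t-test also called 0 of the 10 genes. By sign alone 15 of the 19 probes were lower, beside 49.5% of all tested probes. Of the 10 genes read by their brightest probe 8 were lower, beside 43.2% of all 14848 tested genes. The median difference of the 10 genes was -0.13, against 0.029 for all tested genes. Groups did not overlap for 1 of the 19 probes (5.26%), which was lower on KO arrays, beside 2.14% of all tested probes that were lower and 4.19% that were higher (6.33% in all).

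**Figure D1:**
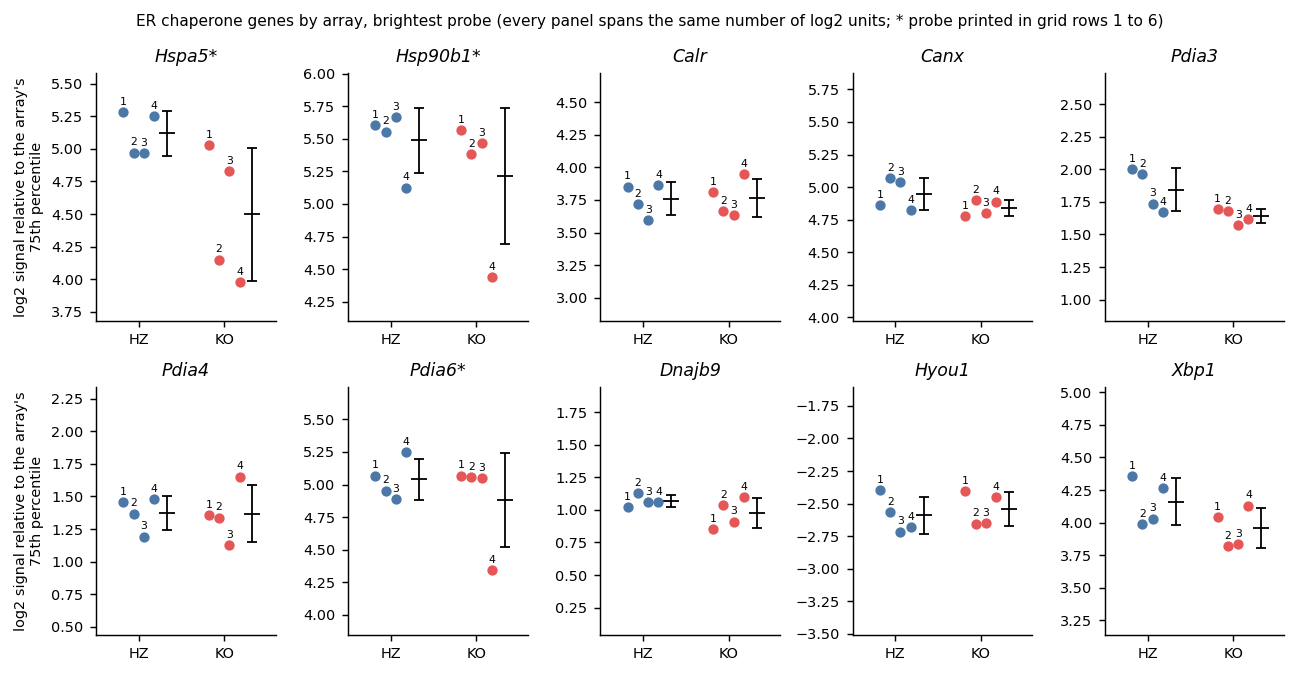
Log2 signal of the brightest probe of each of the 10 genes on the 4 HZ arrays (blue) and 4 KO arrays (red), with replicate numbers above the points and mean and SD (n = 4) as bars. Hspa5, Hsp90b1 and Pdia6, the panels marked with an asterisk, hold KO array 4 at 3.98, 4.44 and 4.34, below every HZ array.

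The chaperones of the ER lumen came first. Hspa5 encodes BiP, the ER member of the Hsp70 family and the chaperone that also keeps the UPR sensors silent. Its brightest probe read 5.28, 4.97, 4.97 and 5.25 on HZ arrays 1 to 4 and 5.03, 4.15, 4.83 and 3.98 on KO arrays 1 to 4. KO arrays 2 and 4 were low, KO array 3 was slightly below all HZ arrays, and KO array 1 lay within the HZ range. The difference was -0.62 (standard error 0.24, 95% interval -1.18 to -0.067), with an unadjusted p of 0.032 and an adjusted p of 0.58 in limma's fit, and KO was lower in 4 of 4 arrays paired by replicate number. The call depended on the processing, as Hspa5 passed the looser thresholds with the replicate number as a block (adjusted p 0.40), with moderated variances that follow the signal (adjusted p 0.45), without HZ array 2 (adjusted p 0.33) and with normexp background correction, where the difference was -1.04 (adjusted p 0.23). Of all probes, 3.4% were called under the block, 1.46% with the moderated variances, 4.81% without HZ array 2 and 1.14% with normexp. In limma's fits the unadjusted p of Hspa5 was 0.034 under the block and 0.043 without HZ array 2, no smaller than the unpaired 0.032. It was 0.018 with the moderated variances and 0.0030 with normexp. Without HZ array 1, HZ array 4, KO array 2 or KO array 4 it was 0.074, 0.069, 0.084 and 0.079. Without HZ array 3, KO array 1 or KO array 3 it was 0.043, 0.0071 and 0.024. The methods' t-test gave 0.061 and the exact two-sided permutation test 0.086.

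The other probes of Hspa5 did not carry that difference. The second read 2.60, 2.25, 2.02 and 2.39 on HZ arrays and 2.33, 2.10, 2.18 and 2.53 on KO arrays, a difference of -0.029 (95% interval -0.37 to 0.31). The dimmest read 2.16, 1.78, 1.69 and 1.92 on HZ arrays and 1.84, 1.58, 1.71 and 2.08 on KO arrays, a difference of -0.086 (95% interval -0.42 to 0.24). For these, the groups overlapped and KO array 4 was the highest KO array, where the brightest probe had its lowest value. The gap between the brightest and the second probe was 2.81 ± 0.12 on HZ and 2.21 ± 0.59 on KO arrays (SD, n = 4), a change of -0.59 with an exact two-sided permutation p of 0.057 (adjusted p 0.26 over 9 such gaps). Against the dimmest probe the gap changed by -0.54 (exact permutation p 0.086, adjusted p 0.26). With 4 arrays in each group no exact p can fall below 0.029.

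**Figure D2:**
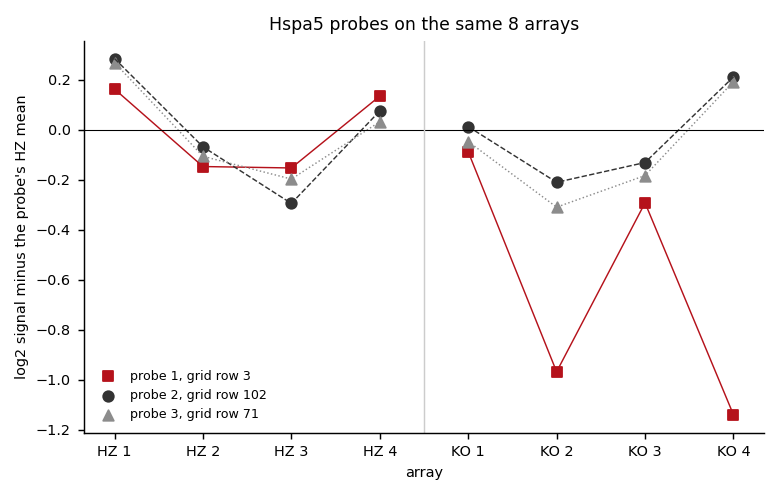
Log2 signal of the 3 Hspa5 probes minus the HZ mean of each, by array, with lines joining arrays of a group only to guide the eye. The probes run together on the HZ arrays, and on KO arrays 2 and 4 the brightest probe (red, grid row 3) lies apart from the other 2.

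Hsp90b1 encodes GRP94, the Hsp90 paralog of the ER, and was read by 1 probe. It read 5.60, 5.55, 5.67 and 5.12 on HZ arrays and 5.57, 5.38, 5.47 and 4.44 on KO arrays. KO arrays 1 to 3 lay within the HZ range, which reached down through HZ array 4, and KO array 4 stood below it. KO was lower in 4 of 4 pairs, by 0.036, 0.17, 0.20 and 0.69. The difference was -0.27 (standard error 0.26, adjusted p 0.78 in limma's fit). With the replicate number as a block the standard error was 0.13 (unadjusted p 0.088, adjusted p 0.46 in limma's fit). Without KO array 4 the difference was -0.014. With normexp background correction the difference was -0.66 and passed the looser thresholds (adjusted p 0.46), beside 1.14% of all probes called there.

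Hyou1 encodes GRP170, which exchanges the nucleotide on BiP and binds unfolded chains itself. The brightest of its 3 probes read -2.40, -2.56, -2.72 and -2.68 on HZ arrays and -2.41, -2.65, -2.65 and -2.45 on KO arrays, a difference of 0.049 (95% interval -0.20 to 0.29). Its second probe differed by -0.34 (95% interval -0.70 to 0.017, adjusted p 0.62 in limma's fit), with KO array 4 lowest at -3.29, and its dimmest by -0.085. The mean of the 3 probes differed by -0.13, opposite in sign to the brightest probe.

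Dnajb9 encodes ERdj4, a J-domain partner that brings BiP to misfolded chains and to the sensor IRE1. Its brighter probe read 1.02, 1.13, 1.06 and 1.06 on HZ arrays and 0.85, 1.04, 0.91 and 1.0997 on KO arrays, a difference of -0.093 (95% interval -0.29 to 0.10). The groups overlapped. Its dimmer probe differed by 0.17 (95% interval -0.11 to 0.45), so the probes disagreed in sign, and the mean of both was 0.039.

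The lectin chaperones had differences close to 0. Calr encodes calreticulin, the soluble lectin of the calnexin cycle, and read 3.85, 3.72, 3.60 and 3.87 on HZ arrays and 3.81, 3.66, 3.63 and 3.95 on KO arrays. Its difference was 0.0050 (95% interval -0.24 to 0.25), and its sign changed with the scaling, from -0.026 to -0.054 under the other 3 normalizations. Canx encodes calnexin, the membrane-bound lectin, and its brighter probe read 4.86, 5.07, 5.04 and 4.82 on HZ arrays and 4.78, 4.90, 4.80 and 4.89 on KO arrays. That difference was -0.11 (95% interval -0.31 to 0.098) and that of the other probe was 0.049 (95% interval -0.12 to 0.22), so the probes disagreed in sign and both intervals hold 0. The second probe had the smallest standard error of all 19, at 0.075.

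Pdia3 encodes ERp57, the disulfide isomerase that works on glycoproteins held by the lectins. Its brighter probe read 2.00, 1.96, 1.74 and 1.67 on HZ arrays and 1.69, 1.68, 1.57 and 1.62 on KO arrays. HZ array 4 lay among the KO arrays, and KO was lower in 4 of 4 pairs. The difference was -0.20 (standard error 0.10, adjusted p 0.64 in limma's fit). The dimmer probe read -1.14, -1.20, -1.31 and -1.18 on HZ arrays and -1.40, -1.42, -1.41 and -1.34 on KO arrays, and was the 1 probe whose groups did not overlap. Its difference was -0.18 (standard error 0.076, unadjusted p 0.042, adjusted p 0.60 in limma's fit). Both Pdia3 probes were lower under each of the alternatives tried, although with normexp background correction the dimmer probe differed by only -0.020.

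Pdia4 and Pdia6 encode ERp72 and P5, further disulfide isomerases that are found with BiP. Pdia4 read 1.46, 1.37, 1.19 and 1.48 on HZ arrays and 1.36, 1.34, 1.13 and 1.65 on KO arrays, with KO array 4 the highest of the 8. Its difference was -0.0070 (95% interval -0.30 to 0.29), and became 0.28 with normexp background correction. Pdia6 read 5.07, 4.95, 4.89 and 5.25 on HZ arrays and 5.07, 5.06, 5.05 and 4.34 on KO arrays. KO arrays 1 to 3 lay inside the HZ range and KO array 4 far below it. Its difference was -0.16 (standard error 0.18, adjusted p 0.81 in limma's fit). It was 0.019 without KO array 4 and -0.54 with normexp background correction (adjusted p 0.41), short of the 1.5-fold the looser thresholds ask for.

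Xbp1 encodes the transcription factor that IRE1 activates by splicing its mRNA, and the probes were not placed on the spliced or unspliced form here. Its brightest probe read 4.36, 3.99, 4.03 and 4.26 on HZ arrays and 4.04, 3.82, 3.83 and 4.13 on KO arrays. The groups overlapped, and KO was lower in 4 of 4 pairs. The 3 probes differed by -0.20, -0.24 and -0.22 (standard errors 0.12, 0.18 and 0.15), and the smallest adjusted p of the 3 was 0.69 in limma's fit. With the replicate number as a block, the brightest probe had an unadjusted p of 0.040 and an adjusted p of 0.41 in limma's fit. For the brightest, the difference lay between -0.27 and -0.14 over all alternatives.

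**Figure D3:**
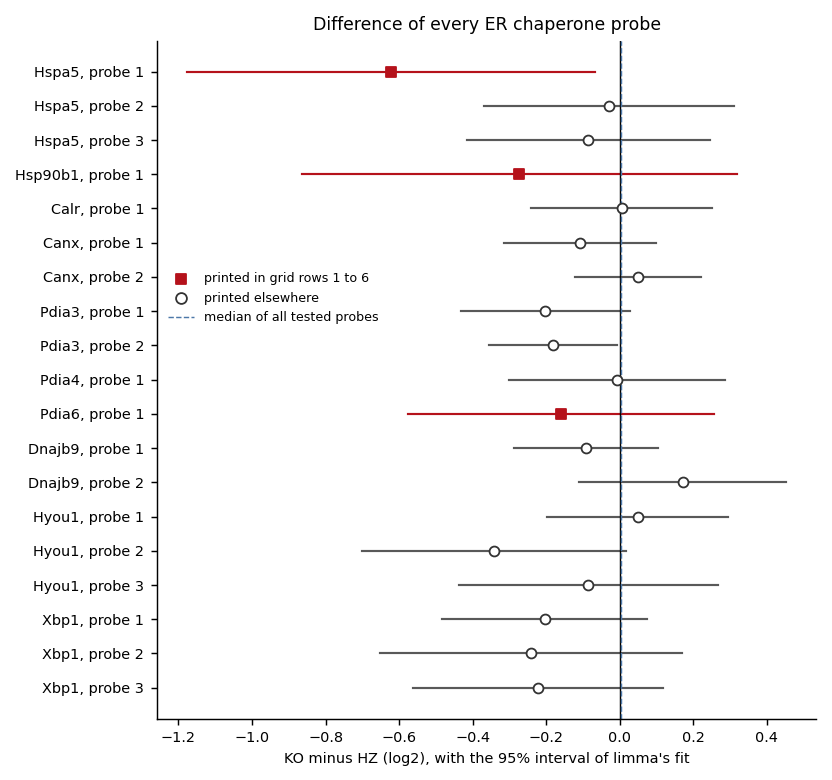
Difference KO minus HZ (log2) of each of the 19 probes with the 95% interval of limma's fit, probes of a gene numbered by brightness. Red squares are the 3 probes printed in grid rows 1 to 6 of the array, open circles the other 16, and the interval leaves out 0 for the brightest Hspa5 probe and the dimmer Pdia3 probe.

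Differences of genes with and without the ER stress element overlapped. The 5 genes with the element had differences from -0.62 to 0.0050 (median -0.16), and the 4 with a window and no element from -0.20 to -0.0070 (median -0.15). With spots in rows 1 to 6 left out, the genes with the element still read were Hspa5 at -0.029 (its second probe), Calr at 0.0050 and Canx at -0.11. Of the 39 windows with the element, 37 gene names were counted, and 21 of them were tested on the arrays, with a median of -0.096 and 13 lower. Without the 5 chaperone genes, 16 tested genes had a median of -0.055 and 9 were lower. Among these were Dnajc3 (-0.059) and Creld2 (-0.051), both UPR target genes, and the degradation genes Syvn1 (0.0099) and Derl3 (-0.22). None of these 4 passed a threshold.

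Of the probes on which KO array 4 read lowest of the 8 arrays, those of Hspa5, Hsp90b1 and Pdia6 were printed in grid rows 3, 4 and 6 of 384, and the second Hyou1 probe in grid row 130. No probe of the other 7 genes lay in rows 1 to 6. This was noticed after the values were seen. Of all tested probes printed once, 502 lay in rows 1 to 6, and 58 of them (11.6%) were lower on KO arrays by over 1.5-fold, against 1065 of 33507 (3.18%) in all other rows. Probes higher by over 1.5-fold made 1.99% in rows 1 to 6 and 1.21% elsewhere, and the median difference in rows 1 to 6 was 0.012. The spread within groups was wider there, with a median SD of 0.28 against 0.21. KO array 4 was over 0.5 below the median of the 8 arrays for 16.1% of the probes in rows 1 to 6 and for 6.44% elsewhere. On HZ arrays 1 to 4 that share in rows 1 to 6 was 10.6%, 8.57%, 1.39% and 5.26%, and on KO arrays 1 to 3 it was 9.16%, 8.96% and 7.78%, so that HZ array 1, at 5.92% elsewhere, lay above these KO arrays. In the first and last 4 grid columns, away from the edge rows, 7.71% of probes were lower by over 1.5-fold against 2.97% away from every edge, and KO array 4 was low for 17.2% against 5.8%. The brightest Hspa5 probe and the brighter Canx probe lay in column 4 and the Calr probe in column 163 of 164.

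Probes printed 10 times on each array gave a comparison of the same probe in both places. For 36 such probes, 39 copies lay in rows 1 to 6 and 321 elsewhere. Copies in rows 1 to 6 fell over 0.5 below the median of the copies elsewhere in 0, 0, 2 and 5 of 39 cases on HZ arrays 1 to 4, and in 9, 12, 11 and 18 of 39 cases on KO arrays 1 to 4. The groups did not overlap in this count, which keeps copies marked as outliers. Copies elsewhere did so in 0.312% to 3.12% of cases on HZ arrays and 2.18% to 7.48% on KO arrays, highest on KO array 4. The scanner software marks copies that stray from their fellows as outliers. Such spots were left out of the signals. Without them the low copies in rows 1 to 6 were 0, 0, 1 and 3 of 39, 39, 38 and 34 on HZ arrays and 3, 5, 6 and 7 of 28, 24, 24 and 23 on KO arrays, so that HZ array 4 and KO array 1 had the same count. Those marks were raised on 81 to 203 spots an array of probes printed more than once and on 0 of the 56305 spots of probes printed once, so none could be raised for the 19 chaperone probes. KO arrays lay in slide row 1 and HZ arrays in slide row 2, so that the place on the slide and the genotype cannot be told apart.

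**Figure D4:**
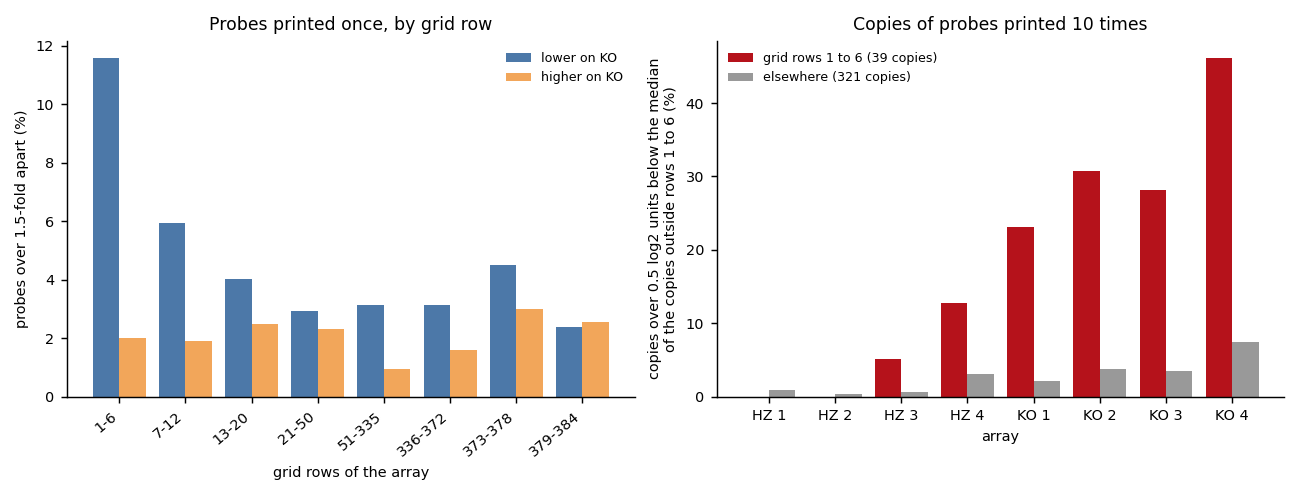
Left, share (%) of tested probes printed once that were lower (blue) or higher (orange) on KO arrays by over 1.5-fold, by grid rows. Right, share (%) of copies of 36 repeated probes that read over 0.5 log2 units below the median of the copies outside rows 1 to 6, by array, for the 39 copies in rows 1 to 6 (red) and the 321 elsewhere (grey), from 0% on HZ array 1 to 46.2% on KO array 4 in the first 6 rows.

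With spots in rows 1 to 6 left out, an alternative added after seeing the data, Hspa5 was read by its second probe (-0.029) and Hsp90b1 and Pdia6 had no probe. The remaining 8 genes had a median difference of -0.061, with 6 lower, 0 at an unadjusted p under 0.05, and a range of -0.20 (Xbp1 and Pdia3) to 0.049 (Hyou1). How much of the Hspa5, Hsp90b1 and Pdia6 differences belongs to the place of the spot was not tested.

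Over the 8 arrays together, the mean of the 10 genes' centred log2 signals was 0.17, 0.075, 0.0057 and 0.071 on HZ arrays 1 to 4 and 0.039, -0.10, -0.083 and -0.18 on KO arrays 1 to 4. HZ array 1 held the highest value for 8 of the 19 probes. KO array 2 held the lowest value for 6 and KO array 4 for 4 of the 19, while HZ array 3 was also lowest for 4.

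Marker lists of other cells were read on the same arrays. All 20 rod markers were well above background on all 8 arrays, with a summed level on a linear scale of 1469 to 1867 on HZ and 1429 to 1667 on KO arrays. By sign, 16 of the 20 rod genes were lower on KO arrays (80%), with a median of -0.12, and 8 of the 10 chaperone genes (80%), with a median of -0.13. Of the retinal pigment epithelium (RPE) list, 19 of 19 tested genes were lower on KO arrays, with a median of -1.67 and a summed level of 19.1 to 46.6 on HZ and 9.19 to 16.7 on KO arrays. Their mean centred signal was 1.25, 0.093, 0.74 and 0.74 on HZ and -0.20, -0.73, -0.43 and -1.45 on KO arrays. Of the Müller glia list, 8 of 10 tested genes were lower (median -0.29), among them Car14 at -1.28, which passed the looser thresholds (adjusted p 0.35 in limma's fit). Car14 read highest on HZ array 1 (-0.20), where the mean centred signal of that list was the lowest of the HZ arrays (-0.15). The bipolar and amacrine list had a median of -0.077, with 5 of 8 lower. All 12 microglia genes and 3 of 3 tested red blood cell genes were higher on KO arrays (medians 0.78 and 1.58). Groups overlapped for all 12 microglia genes, whose mean centred signal on HZ array 4 (0.51) lay above that of KO arrays 2, 3 and 4 (0.46, -0.0058 and 0.20), and Hbb-b1, Hbb-b2 and Alas2 were above background on no array. The part of these cells in the chaperone values was not tested, and in such bulk samples fewer cells of a type and less RNA per cell cannot be told apart. The Lpcat1 probe, whose place relative to the deletion was not determined, differed by -0.037 (95% interval -0.29 to 0.22) and did not separate the labels.

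The genes with profiles nearest to the brightest Hspa5 probe were Snrnp48, Tango6, Fam177a, Gm16677 and Srsf10, by the root mean square distance of centred log2 signals over the 8 arrays. Distances ran from 0.11 for Snrnp48 to 0.17 for Srsf10. The other Hspa5 probes lay at 0.47 and 0.46, and 4029 and 3197 of 14741 ranked genes were nearer than these. No other chaperone of the 10 genes was among the nearest 5. Of the 5 probes, none lay in grid rows 1 to 6, with rows from 17 to 160, and Srsf10 lay in grid column 4, as the Hspa5 probe did. Snrnp48 read 1.48, 1.30, 1.37 and 1.55 on HZ arrays and 1.19, 0.59, 0.99 and 0.43 on KO arrays. It was picked for its likeness to the brightest Hspa5 probe, so its lower level on KO arrays follows from the choice.

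Other ER genes, and chaperones of the cytosol and the mitochondria, were read from 7 lists of 132 genes, 130 of them tested. Their median difference was 0.031, with 53 lower and 77 higher. Among the 77 higher genes, 17 were cytosolic and 10 mitochondrial chaperones. Of the 130 genes, 1 passed the looser thresholds, Cnpy2, beside 1.46% of all tested genes. At an unadjusted p under 0.05, 4 were lower and 5 higher, beside 9.3% of all tested genes in either direction. Cnpy2, an ER protein, read 3.26, 2.90, 3.14 and 3.75 on HZ arrays and 3.92, 3.88, 3.76 and 4.09 on KO arrays, and rose by 0.65 (standard error 0.18, adjusted p 0.44 in limma's fit). Its groups did not overlap, and the call was lost without HZ array 1 or 3 or KO array 2, 3 or 4. It was also lost with quantile normalization, with the percentile over detected probes, with no filter on dim probes and with the edges left out, where its probe drops out. That probe lay in grid row 12 and column 162, and probes of rows 7 to 12 had a median difference of 0.12, with 25.2% at an unadjusted p under 0.05.

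**Figure D5:**
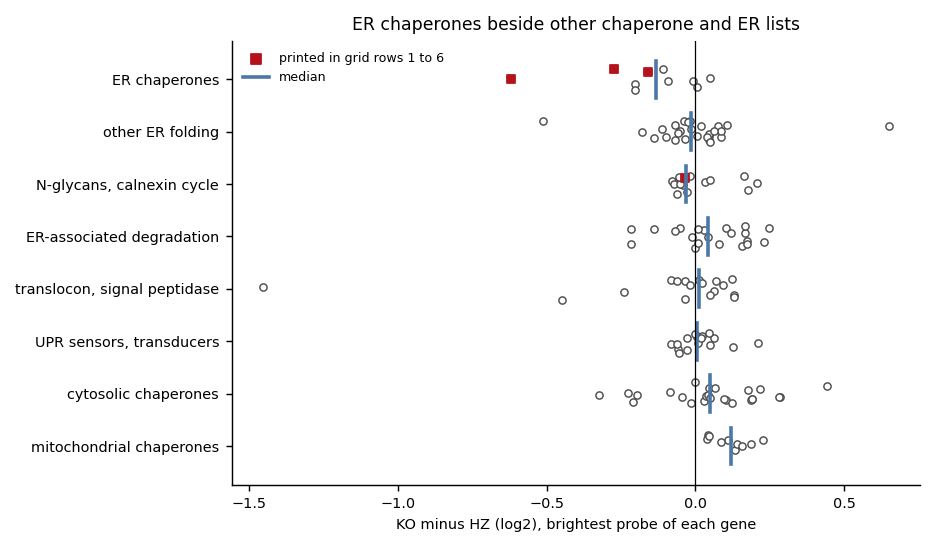
Difference KO minus HZ (log2) of the brightest probe of each gene in the 10 ER chaperone genes and in 7 other lists, with the median of each list as a blue bar and probes printed in grid rows 1 to 6 as red squares. The medians run from -0.13 for the ER chaperones to 0.12 for the mitochondrial chaperones.

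Among the 27 other ER folding genes tested, 14 were lower and 13 higher (median -0.016). Besides Cnpy2, the largest differences were those of Hspa13, an Hsp70 relative (-0.51), the prolyl isomerase Fkbp9 (-0.18) and Erp29 (-0.14, its other probe 0.13 with groups apart). The Hspa13 probe lay in the last grid column, 164, and read -1.12 on KO array 4 against 0.19 to 0.76 on the other KO arrays. The N-glycan and calnexin cycle list had a median of -0.033 over 14 genes, 9 of them lower. Its largest differences were those of the oligosaccharyltransferase subunit Dad1 (0.21, its other probe 0.028) and the glucosidase gene Mogs (0.18). The mannosidase gene Man1b1 (0.16, groups apart) and the cargo receptor Lman1 (-0.080, its other probe 0.12) came next. No gene of the latter list passed a threshold.

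In ER-associated degradation, 14 of 21 genes were higher (median 0.043). The lectin gene Erlec1 differed by 0.25 (its other probe 0.072) and Herpud1, a UPR target, by 0.23 (groups apart, its other probe -0.020). Derl3 differed by -0.22 and Sel1l, the adaptor of the ligase HRD1, by -0.22 (groups apart, its other probe 0.0069). Of the sensors and transducers of the UPR, 9 of 16 were higher (median 0.0068), and 0 passed an unadjusted p under 0.05. Eif2ak3, which encodes the sensor PERK, differed by 0.21 (standard error 0.092, adjusted p 0.61 in limma's fit). Ddit3, which encodes CHOP, differed by 0.13, Creb3 by -0.081 (its other probe 0.0032) and Nfe2l2 by 0.063.

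The translocon and signal peptidase list held the farthest gene. Sec61a1, which encodes the pore subunit of the translocon, read 2.84, 3.22, 2.98 and 3.06 on HZ arrays and 2.80, 2.01, 1.48 and -0.0025 on KO arrays with its brightest probe, printed in grid row 8 and column 4. That difference was -1.45 (standard error 0.52, adjusted p 0.54 in limma's fit). Its other probes differed by 0.049 and 0.053, so that, as for Hspa5, the brightest probe stood alone. The other 3 genes named from that list were Sec61a2 (-0.45, its other probe 0.090), Tram1 (-0.24) and Ssr4 (0.13, its other probe 0.19). The median over 17 genes was 0.013.

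Chaperones outside the ER are read beside all tested genes, of which 8438 of 14848 were higher by sign (median 0.029). Of 25 cytosolic chaperone genes 17 were higher (median 0.050), with Hspa2 at 0.44, Hspb1 at 0.28 and the Hsp90 activator gene Ahsa1 at 0.28 (standard error 0.080, adjusted p 0.45 in limma's fit, groups apart, grid row 25). Hspa8, the constitutive Hsp70, differed by -0.32 by its brightest probe and by 0.13 to 0.24 by its other 3. All 10 mitochondrial chaperone genes were higher (median 0.12), from 0.038 to 0.23. Among them were Dnaja3 (0.23, groups apart, its other probe -0.057), Hspd1 (0.19, its other probe 0.049), Trap1 (0.16) and Clpp (0.14). None of these chaperones passed either pair of thresholds.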

How the data were processed

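The data were 8 single-colour Agilent SurePrint G3 mouse arrays of photoreceptor cells isolated at postnatal day 8, grouped by their labels as HZ (n = 4) and KO (n = 4). The authors deposited scanner output of Agilent Feature Extraction 10.7.1.1 with a background-subtracted signal intensity per spot, and a table of log2 values that GeneSpring had shifted to the 75th percentile and centred on the median of each probe over the arrays, which served as an alternative.

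From the deposited intensities, log2 signals minus each array's 75th percentile were computed. Spots marked as outliers were dropped, and copies of a probe were averaged. The 75th percentile lay at an intensity of 882 to 1024, and 59.5% to 64.6% of probes were well above background per array. The number of arrays limits the precision. Tested probes exceeded background clearly on 4 or more arrays and had 3 or more values per group. KO and HZ were compared by limma (version 3.58.1, lmFit and eBayes, two-sided) in R 4.3.3, after reading with data.table (version 1.17.8), with Benjamini-Hochberg adjustment over all 34303 tested probes. Probes were named through RefSeq accessions (32994 of 56605 matched), and a gene is summarised by its brightest probe. Permutation tests were exact and two-sided. The comparison was tested on simulated data first.

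The members and lists were chosen with earlier results of these data known. Named are the 10 chaperone genes with every probe, the 4 largest differences of each other list among genes well above background on all 8 arrays, the 5 genes nearest to Hspa5, and Lpcat1. Alternatives covered normalization, background correction, filters, the methods' t-test, limma's trend and robust options for the moderated variances, the replicate block and each array left out. A further 2 on grid position were added after seeing the data. Their effects are given at the end.

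The replicate number was checked as a pairing, with all arrays on 1 slide and the number equal to the slide column. Deviations from group means correlated at 0.17 to 0.34 between arrays of the same number, over the minimum of 0.1 in 4 of 4 pairs. Otherwise they correlated at -0.34 to 0.12, and HZ array 1 with KO array 3 (0.12) also lay above that minimum. The numbers were taken to pair the arrays. Standard errors, intervals and adjusted p-values of single probes are those of the unpaired fit unless the block is named. Promoter sequences are those of RefSeq on GRCm38.p6, searched in Python 3.11.15 with pandas 2.3.3, and plots were drawn with matplotlib 3.10.9.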

Additional observations from a re-analysis of the deposited data

Results flagged for a closer look

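In 5 of 52 groups of 4 arrays, an array stood apart from the other 3 by a gap larger than chance gives in 1 of 20 groups, so that about 2.6 such groups are given by chance. KO array 4 was low for Hsp90b1 (4.44, with 5.38 to 5.57 on the other KO arrays) and for Pdia6 (4.34, with 5.05 to 5.07), both printed in grid rows 1 to 6. KO array 4 was the highest of the KO arrays for the dimmer Pdia3 probe (-1.34, with -1.42 to -1.40). HZ array 4 was low for the second Canx probe (4.57, with 4.71 to 4.73 on the other HZ arrays). HZ array 1 was high in the mean centred signal of the red blood cell markers (0.26, with -1.23 to -1.04).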

How the results depend on the processing

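Of the 10 genes, 0 were called. With normexp background correction 2 were called (Hspa5 and Hsp90b1), with limma's trend and robust options 1, and with the replicate block 1 (Hspa5). Over all probes 279 were called lower and 78 higher. These counts were 119 higher with quantile normalization, 32 lower and 9 higher with no filter on dim probes, and, with the replicate number as a block for the pairing, 913 lower and 254 higher. The block changed no other call among the 10 genes. Of the genes of the other lists, 1 was called. There were 0 with quantile normalization, with the percentile taken over detected probes, with no filter, and with 6 rows and 4 columns at every edge left out. There were 2 with the filter at all 8 arrays, with the trend and robust options and with the block. With each array left out in turn, probes called lower ran from 0 to 1267 and higher from 0 to 350, with 0 of both without HZ array 1, HZ array 3 or KO array 3 and the most without HZ array 2, chaperone genes called from 0 to 1, other list genes called from 0 to 1, and the chaperone median from -0.15 to -0.11. That median stayed between -0.20 and -0.084 under the other settings except with rows 1 to 6 left out (-0.061) and with 6 rows and 4 columns at every edge left out (-0.029).

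Signs turned for small differences. Calr was -0.039 with quantile, -0.054 with cyclic loess, -0.046 with normexp, -0.026 with the percentile over detected probes, and from -0.057 to 0.049 with an array left out (-0.0077, -0.049, -0.011 and -0.057 without HZ 2, HZ 3, KO 1 and KO 4). Pdia4 was 0.28 with normexp, 0.0096 in the authors' processed values, and from -0.10 to 0.074 with an array left out (0.020, 0.029, 0.0030 and 0.074 without HZ 1, HZ 4, KO 2 and KO 3). Canx was 0.0078 with normexp and 0.049 without the edges, Dnajb9 0.087 with normexp and 0.039 as the mean of its probes, Hyou1 -0.13 as the mean of its probes, and Pdia6 from -0.22 to 0.019 with an array left out (0.019 without KO 4). Pdia3 and Xbp1 kept their sign in 21 of 21 settings and passed neither pair of thresholds in any of them. In limma's fit the unadjusted p of the brighter Pdia3 probe was 0.038 with quantile, 0.025 with cyclic loess and 0.026 with the percentile over detected probes. It was 0.049 with the trend and robust options, 0.030 without HZ array 4, and over 0.05 in the other fits. That of the dimmer Pdia3 probe ran from 0.0041 in the methods' t-test to 0.81 with normexp. The cause of these changes with the setting was not tested.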
